A study of Homo sapiens with 8 samples.

Results

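The DNA replication machinery was followed here as 59 genes, chosen by name for their part in copying the genome: loading and starting the replicative helicase, polymerising DNA, protecting the fork, rebuilding chromatin behind it and, for 3 E2F factors, transcribing this programme in S phase. All 59 were among the 17131 genes of the deposited table, identified by Entrez number and represented by 271 of its 86639 RefSeq transcripts. All 59 also passed the filter on low counts, with 12434 genes tested in all, and together they held between 0.0822% and 0.1066% of a library's counts.

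The data are RNA sequencing of 8 cultures of HaCaT, an established and spontaneously immortalised line of human keratinocytes, in 2 groups of 4. The methods describe stimulation of HaCaT with M5, which combines 5 cytokines (oncostatin M, TNF-α, IL-1α, IL-17A and IL-22) at 10 ng/mL each for 24 h, used to model psoriasis in culture, with or without OTS514, which was given at 10 nM for 12 h beforehand and kept together with M5. OTS514 inhibits the kinase TOPK, which PBK encodes. The question was which transcripts TOPK inhibition changes in M5-stimulated keratinocytes. Libraries titled M5_O5 carry the treatment entry "No treament", whereas libraries titled M5 carry the entry "TOPK inhibitor", so title and treatment name opposite groups as treated. The groups were therefore kept by title, and each direction is stated as M5_O5 relative to M5. If the entered treatment holds, a transcript higher in M5_O5 was lower with OTS514, and if the title holds it was higher with OTS514. All cultures shared 1 cell line and M5, no unstimulated culture was analysed here, and nothing in the labels says whether replicates came from separate experiments, so p-values measure the spread between these cultures.

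Replication starts in G1, when the origin recognition complex, CDC6 and CDT1 load the MCM2-7 ring onto DNA as an inactive double hexamer, a step that geminin (GMNN) blocks once S phase begins. The kinases CDC7-DBF4 and CDK2 then recruit CDC45 and the GINS complex, which turn the ring into an active helicase. Primase and polymerase α lay down primers, polymerases ε and δ extend them on the leading and lagging strands, and PCNA, loaded by the RFC complex, tethers the polymerases. Many of these genes are transcribed at the G1/S boundary, when E2F1, E2F2 and E2F3 are released from the retinoblastoma protein, while E2F7 and E2F8 repress the same promoters later. In the epidermis the programme belongs to dividing basal keratinocytes.

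E2F factors recognise short GC-rich words next to a run of T, and 4 such words of 8 letters (TTTCCCGC, TTTGGCGC, TTTGCCGC and TTTCGCGC, on both strands) were searched in RefSeq promoter windows of GRCh38.p14, running from 250 bases before to 50 after a transcription start. A window was found for 51 of the 59 replication genes, 12 of which had several starts, and a gene was counted if any of its windows held a word. The 160 bases directly before the start are shown 5′ to 3′ on the gene's strand for 3 genes with a word and a clear difference between groups (MCM6, E2F1 and UHRF1), for PCNA, a classic S-phase transcript with a word and a smaller difference, for MCM10, which had the largest difference and no word, and for MCM7 and POLE, the pair of genes that were lower in M5_O5. Where a gene had several starts, a window with the most E2F words is shown. For PCNA and MCM7 the windows of the other starts held no E2F word. Capitals mark every match to an E2F word. The windows are MCM6 at chr2:135876444-135876603 (minus strand), E2F1 at chr20:33686386-33686545 (minus), UHRF1 at chr19:4909341-4909500 (plus), PCNA at chr20:5126623-5126782 (minus), MCM10 at chr10:13161398-13161557 (plus), MCM7 at chr7:100101398-100101557 (minus) and POLE at chr12:132687343-132687502 (minus).
MCM6: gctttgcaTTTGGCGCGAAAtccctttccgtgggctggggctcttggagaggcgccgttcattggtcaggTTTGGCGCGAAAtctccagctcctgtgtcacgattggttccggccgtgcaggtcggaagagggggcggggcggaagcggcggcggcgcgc
E2F1: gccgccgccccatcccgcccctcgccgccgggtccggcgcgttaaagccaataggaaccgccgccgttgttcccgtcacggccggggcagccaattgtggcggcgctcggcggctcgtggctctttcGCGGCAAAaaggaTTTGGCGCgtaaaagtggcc
UHRF1: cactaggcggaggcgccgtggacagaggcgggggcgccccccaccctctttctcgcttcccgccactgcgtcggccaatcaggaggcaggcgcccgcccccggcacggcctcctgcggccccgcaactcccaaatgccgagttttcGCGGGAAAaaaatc
PCNA: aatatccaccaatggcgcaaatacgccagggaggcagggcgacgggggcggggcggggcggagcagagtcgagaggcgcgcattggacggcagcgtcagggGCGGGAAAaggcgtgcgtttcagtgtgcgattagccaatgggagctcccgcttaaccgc
MCM10: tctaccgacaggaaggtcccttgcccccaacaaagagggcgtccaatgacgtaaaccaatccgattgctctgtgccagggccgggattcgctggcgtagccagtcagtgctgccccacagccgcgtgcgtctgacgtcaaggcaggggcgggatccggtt
MCM7: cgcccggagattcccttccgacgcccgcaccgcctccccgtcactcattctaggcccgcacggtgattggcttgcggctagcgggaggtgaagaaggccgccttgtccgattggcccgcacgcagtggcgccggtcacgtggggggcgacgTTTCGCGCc
POLE: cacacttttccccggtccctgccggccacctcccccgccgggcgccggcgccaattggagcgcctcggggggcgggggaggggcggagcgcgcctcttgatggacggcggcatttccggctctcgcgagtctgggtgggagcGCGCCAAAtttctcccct

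The MCM6 window held a stretch of 12 bases, in which TTTGGCGC on the gene's strand overlaps TTTCGCGC on the other strand, at 2 places with first bases at -152 and -90 from the start. The E2F1 window held 1 word at -33 and another at -20, and the UHRF1, PCNA, MCM7 and POLE windows shown held 1 word each. In all, 26 of the 51 replication genes had an E2F word (51.0%), against 686 of the 10208 tested genes with a window (6.72%) and 1090 of all 27305 genes in the promoter table (3.99%). A match describes letters only and is not evidence of binding. Lack of these exact words is likewise not evidence that a promoter has no E2F site.

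Transcripts of the replication genes were more abundant in the libraries titled M5_O5. With edgeR's quasi-likelihood test and Benjamini-Hochberg adjustment over all 12434 genes, 33 of 59 were higher in M5_O5 at an adjusted p under 0.05 (55.9%), against 19.5% of all genes tested. In the other direction 2 of 59 were lower, MCM7 and POLE, against 17.6% of all genes. The remaining 24 did not pass. The median log2 fold change was 0.38 over the replication genes, with a range from -0.27 to 2.21, and 0.012 over all genes. Most differences were below 2-fold: 9 genes passed with a fold of at least 2 (15.3%, against 2.87% of all genes), namely MCM10, CLSPN, E2F1, CDC45, MCM6, UHRF1, PRIM1, CDC6 and ORC6, and 0 were lower by that much (0.33% of all genes). All 4 M5_O5 libraries lay above all 4 M5 libraries for 29 of the 59 genes (17.8% of all genes) and below them for 1, POLE (15.8% of all genes). The balance of all calls depends on the scaling: with library size only, 3858 of all genes were higher and 1008 lower, with 39 and 0 of the replication genes. In bulk RNA, a different share of cells in S phase and a different amount of replication RNA per cell cannot be told apart.

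**Figure D1:**
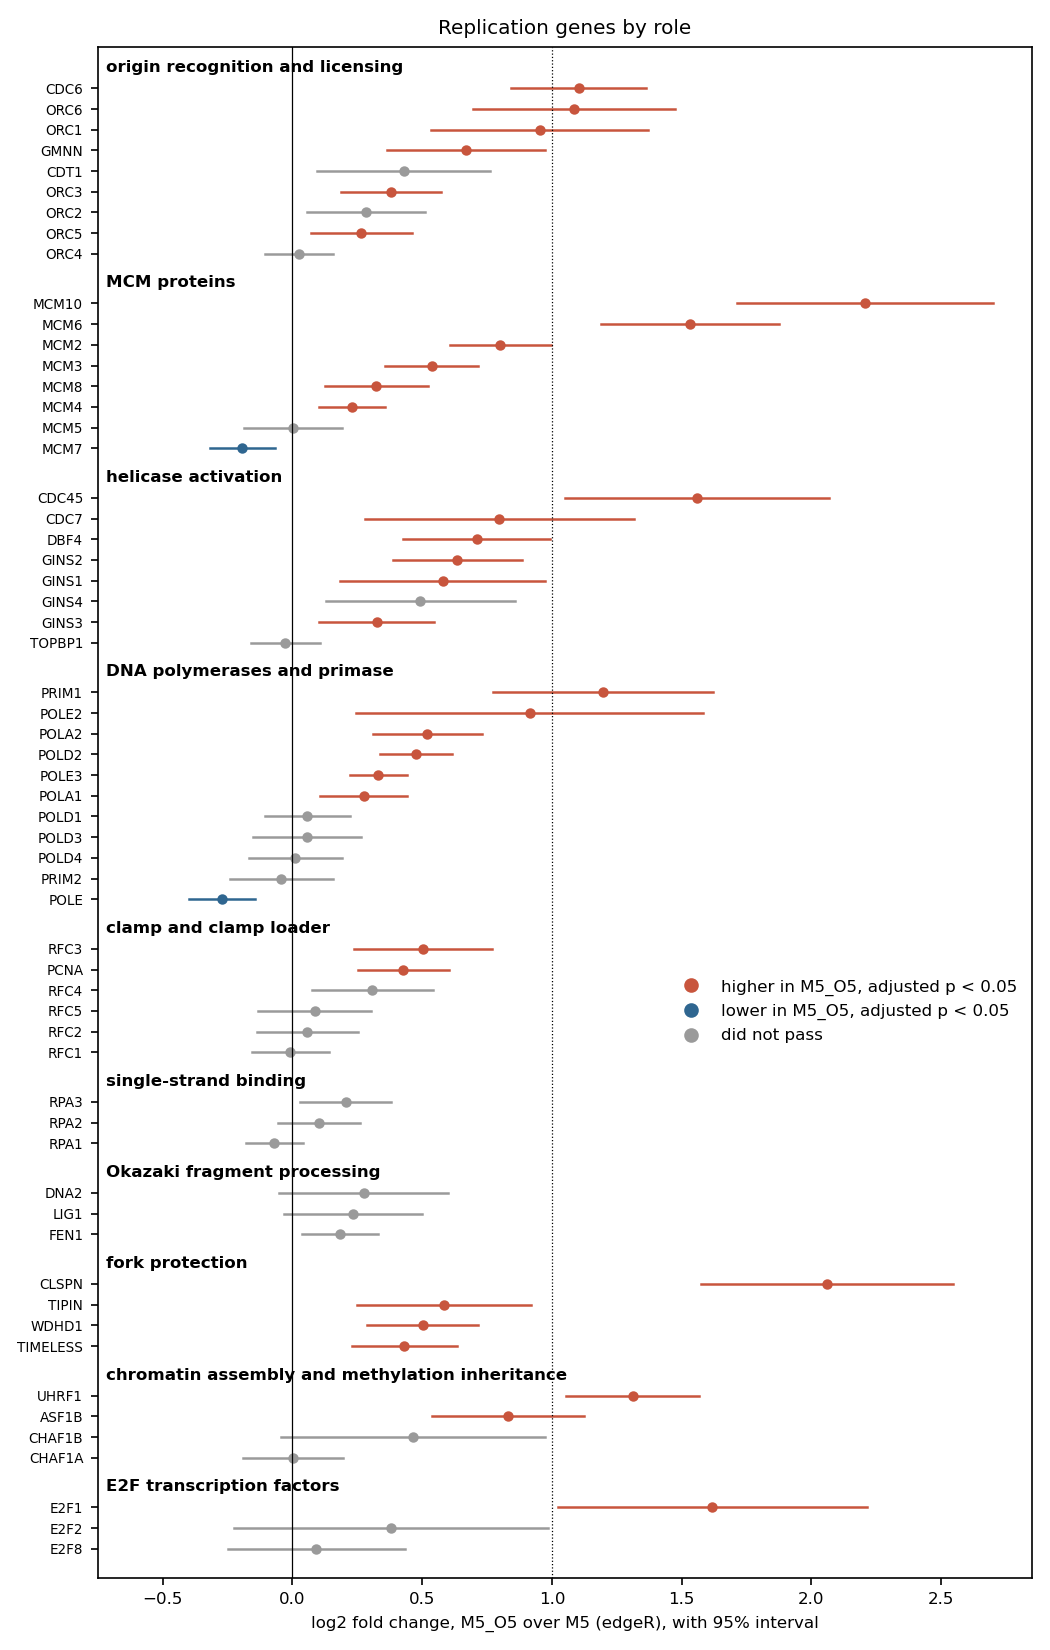
Log2 fold change of M5_O5 over M5 for the 59 replication genes, ordered within 10 roles, with bars for an approximate 95% interval and a dotted line at 2-fold. The SE behind the bars was derived from edgeR's F statistic and used with a normal quantile, so calls rest on the adjusted p and not on the bars. Points are red where higher and blue where lower at an adjusted p under 0.05. MCM10 and CLSPN reach furthest to the right, at 2.21 and 2.06, and the blue points are MCM7 and POLE.

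The libraries were not equally far apart within either group. A chi-square per gene between libraries was 10.2 to 16.2 for M5 replicate 1 against the other M5 libraries, and 2.01 to 4.01 among those. For M5_O5 replicate 1 it was 7.15 to 11.2 against the other M5_O5 libraries, and 3.02 to 7.15 among those. Total counts were 16113014 to 16922673 in M5_O5 and 13708044 to 16847581 in M5, with the smallest in M5 replicate 1. This library had the highest level of the 4 M5 libraries for 33 of the 59 replication genes, M5 replicates 2, 3 and 4 for 15, 1 and 10. A list of 20 mitotic genes moved in the same way: its median level on the log2(CPM + 1) scale was 3.23 in M5 replicate 1, 2.19 to 2.34 in the other M5 libraries and 3.46 to 3.66 in M5_O5. Of these mitotic genes, 20 of 20 were higher in M5_O5 (median log2 fold change 1.11), against 19.5% of all genes tested. PBK itself was at 2.63 CPM in M5 replicate 1, at 0.588 to 0.987 CPM in the other M5 libraries and at 2.25 to 3.60 CPM in M5_O5 (log2 fold change 1.32, SE 0.34, edgeR adjusted p = 0.00738). OTS514 acts on the kinase, so the PBK transcript does not settle which label is right. Without M5 replicate 1, 37 of 59 replication genes were higher. Calls over all genes rose as well, from 2420 of 12434 to 2872 of 12552. The part that cycling itself had in these differences was not tested.

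Markers of the cell type were checked as well. All 7 keratinocyte markers were expressed, with a summed level of 12866 to 14281 CPM in M5_O5 and 16564 to 17831 CPM in M5. Of these markers, 5 were lower in M5_O5 (median log2 fold change -0.29), against 17.6% of all genes tested. Among all genes at 30 CPM or more, a level far below that of the median marker, 30.8% were lower. Of 9 markers of other cell types, 7 were too low to test, with PTPRC at 0 counts in every library and PECAM1 at no more than 1 count. CD68 and COL1A1 were expressed and lower in M5_O5, at -0.45 and -0.58 on the log2 scale (edgeR adjusted p = 0.00675 and 0.000168), and the list summed to 76.1 to 97.0 CPM in M5_O5 and 101 to 143 CPM in M5. Their part in the replication result was not tested.

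Of the 9 genes of origin recognition and licensing, 6 were higher in M5_O5 (66.7%), 0 lower and 3 did not pass. Their median log2 fold change was 0.43. For comparison here and in the roles below, 19.5% of all genes tested were higher and 17.6% lower. CDC6, the ATPase that joins the origin complex to load MCM, was at 13.0, 9.76, 11.9 and 12.8 CPM in M5_O5 replicates 1 to 4 and at 6.93, 4.83, 5.07 and 5.36 CPM in M5. Every M5_O5 library was above every M5 library, a log2 fold change of 1.10 (SE 0.13, edgeR adjusted p = 3.08e-05). ORC1 and ORC6, both of which are regulated through the cell cycle, differed by 0.95 and 1.08 (edgeR adjusted p = 0.00325 and 0.000828), while ORC3 and ORC5 differed by 0.38 and 0.27. The latter was just past the threshold (edgeR adjusted p = 0.0465) and lost its call without any 1 of 6 libraries, all except M5_O5 replicate 2 and M5 replicate 1 (0.21 to 0.31). ORC4, a core subunit, was at 42.9, 49.1, 48.4 and 49.9 CPM in M5_O5 and at 50.5, 46.2, 45.1 and 45.3 CPM in M5, overlapping groups with a log2 fold change of 0.025 (SE 0.07). ORC2 stood between, at 0.28 (edgeR adjusted p = 0.0673), and passed without M5 replicate 1 (0.42, edgeR adjusted p = 0.0015).

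The pair of CDT1 and its inhibitor geminin differed in call. CDT1 was at 3.26, 3.73, 4.03 and 4.93 CPM in M5_O5 and at 3.58, 2.55, 2.57 and 3.18 CPM in M5, overlapping groups with a log2 fold change of 0.43 (SE 0.17, edgeR adjusted p = 0.0622). It passed without M5 replicate 1, at 0.52 (edgeR adjusted p = 0.0246), and without M5_O5 replicate 1, at 0.51. GMNN was at 4.77, 4.48, 4.56 and 4.64 CPM in M5_O5 and at 3.87, 2.81, 2.37 and 2.62 CPM in M5, with no overlap (0.67, SE 0.16, edgeR adjusted p = 0.00413). The difference between these partners was itself not resolved: the log2 ratio of CDT1 to GMNN was -0.22 ± 0.26 (SD, n = 4) in M5_O5 and 0.035 ± 0.20 (SD, n = 4) in M5 (two-sided exact permutation test, p = 0.143, adjusted over 6 pairs 0.206).

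Among 8 MCM genes, 6 were higher (75%, against 19.5% of all genes), 1 was lower and 1 did not pass, with a median of 0.43. MCM10, which is not part of the ring and helps to activate it, was at 2.56, 2.58, 3.85 and 3.68 CPM in M5_O5 and at 0.657, 0.849, 0.395 and 0.810 CPM in M5. These groups were far apart, by 4.61-fold (log2 2.21, SE 0.25, edgeR adjusted p = 2.14e-05), though on only 6 to 65 counts per library. MCM8, which acts mainly in repair by recombination, differed by 0.32 with groups that overlapped (edgeR adjusted p = 0.0219), and the call was lost without M5_O5 replicate 3 or 4 or M5 replicate 3 or 4 (0.26 to 0.32).

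The 6 subunits of the ring did not move together. MCM6 was at 7.91, 6.55, 7.41 and 7.84 CPM in M5_O5 and at 3.65, 1.96, 1.91 and 2.80 CPM in M5, a 2.89-fold difference with no overlap (log2 1.53, SE 0.18, edgeR adjusted p = 2.14e-05). MCM2 was at 33.2, 37.5, 45.3 and 34.4 CPM in M5_O5 and at 18.8, 23.4, 21.3 and 22.6 CPM in M5 (log2 0.80, SE 0.10, edgeR adjusted p = 4.21e-05). Both separated the groups completely, and so did the next pair with smaller differences. MCM3 was at 25.1, 22.3, 25.9 and 26.4 CPM in M5_O5 and at 19.3, 18.7, 15.5 and 15.3 CPM in M5 (log2 0.54, SE 0.09, edgeR adjusted p = 0.000468). MCM4 was at 40.3, 39.5, 42.0 and 43.6 CPM in M5_O5 and at 37.1, 35.9, 32.2 and 36.1 CPM in M5 (log2 0.23, SE 0.07, edgeR adjusted p = 0.0131), and its call was lost without M5 replicate 3 (0.19, edgeR adjusted p = 0.0584).

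The last ring subunits showed no rise. MCM5 was at 10.9, 9.59, 10.8 and 9.51 CPM in M5_O5 and at 9.12, 10.6, 10.2 and 10.8 CPM in M5, a log2 fold change of 0.0022 (SE 0.10, edgeR adjusted p = 0.989). MCM7 was at 65.2, 62.1, 69.6 and 65.4 CPM in M5_O5 and at 67.0, 75.6, 77.9 and 79.0 CPM in M5, where M5 replicate 1 fell inside the M5_O5 range (log2 -0.19, SE 0.06, edgeR adjusted p = 0.0284). The MCM7 call is weak: it was lost when counts were scaled by library size only (-0.075), after removal of a trend with expression level (-0.13), in limma on log2(TPM + 1) or log2(TPM + 0.1) (-0.050 and -0.051) and when any of 5 single libraries was left out, namely M5_O5 replicate 2 or 4 or M5 replicate 2, 3 or 4 (-0.19 to -0.17). Compared per transcript length in TPM, MCM7 was the most abundant ring subunit in both groups, at 48.0 ± 2.93 TPM in M5_O5 and 49.7 ± 1.89 TPM in M5 (SD, n = 4), and MCM6 the least abundant, at 3.54 ± 0.43 and 1.15 ± 0.445 TPM. The ratio of MCM7 to MCM6 in TPM was 12.6 to 14.7 in the M5_O5 libraries and 27.8 to 61.8 in the M5 libraries.

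**Figure D2:**
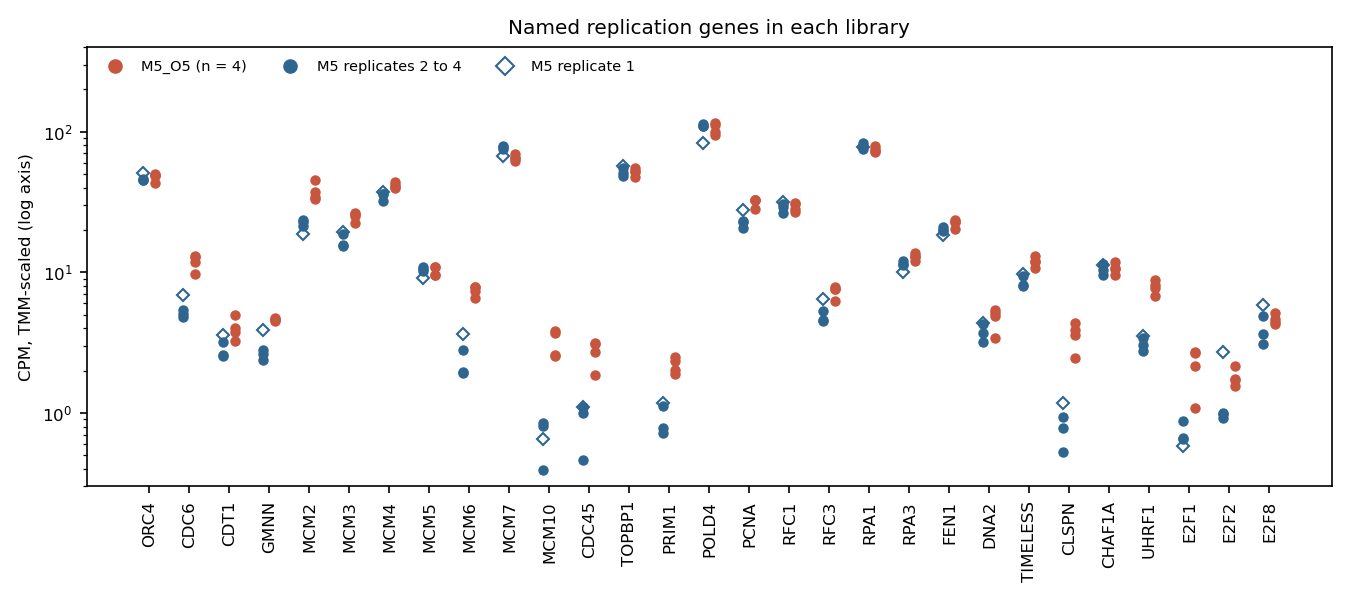
CPM (counts scaled to library size, log axis) of 29 replication genes in each library, with M5_O5 in red, M5 in blue and M5 replicate 1 as an open diamond. MCM10, CLSPN and MCM6 separate the groups widely, while MCM5, RFC1 and CHAF1A overlap. The open diamond of E2F2 stands at 2.70 CPM, above all other libraries of that gene.

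Of 8 genes that activate the helicase, 6 were higher (75%, against 19.5% of all genes), 0 lower and 2 did not pass. Their median was 0.61. CDC45, a subunit of the active helicase, was at 1.86, 3.10, 2.73 and 3.15 CPM in M5_O5 and at 1.09, 1.11, 0.461 and 0.997 CPM in M5, with every M5_O5 library higher (log2 1.56, SE 0.26, edgeR adjusted p = 0.000392). The other subunits, those of GINS, differed less: 0.58 for GINS1, 0.64 for GINS2 and 0.32 for GINS3 passed (edgeR adjusted p = 0.0355, 0.00146 and 0.0357), and GINS4 at 0.49 narrowly did not (edgeR adjusted p = 0.0502). The kinase CDC7 and its activator DBF4 were higher by 0.80 and 0.71 (edgeR adjusted p = 0.0289 and 0.00173), the former with overlapping groups. The calls of 3 of these genes depended on single libraries. GINS1 did not pass without M5_O5 replicate 1 or 4 or M5 replicate 2, 3 or 4 (0.35 to 0.58), GINS3 without M5_O5 replicate 1, 2 or 3 or M5 replicate 3 or 4 (0.27 to 0.33), and CDC7 without M5_O5 replicate 1 or 2 or M5 replicate 2, 3 or 4 (0.66 to 0.75). GINS4 passed without M5 replicate 1 (0.56, edgeR adjusted p = 0.032). TOPBP1, a scaffold of helicase assembly, was at 52.1, 52.0, 47.6 and 54.8 CPM in M5_O5 and at 56.6, 48.4, 50.7 and 54.9 CPM in M5, with groups that overlapped (-0.027, SE 0.07).

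The 11 genes of the polymerases and primase had calls in both directions, with a median of 0.28. Of these, 6 were higher (54.5%, against 19.5% of all genes), 1 was lower and 4 did not pass. PRIM1, the catalytic subunit of primase, was at 2.33, 1.90, 2.01 and 2.496 CPM in M5_O5 and at 1.17, 0.784, 0.724 and 1.12 CPM in M5. Its groups did not overlap (log2 1.20, SE 0.22, edgeR adjusted p = 0.00073), whereas its partner PRIM2 was at -0.043 (SE 0.10). Both polymerase α subunits were higher, POLA1 by 0.28 and POLA2 by 0.52 (edgeR adjusted p = 0.0211 and 0.00193), the former not without M5_O5 replicate 2 or 4 or M5 replicate 2 or 3 (0.24 to 0.26). Of polymerase δ, the accessory subunit POLD2 was higher by 0.48 (edgeR adjusted p = 0.000165), while the catalytic subunit POLD1 and the subunit POLD3 were at 0.057 and 0.056. POLD4, the smallest subunit of polymerase δ, was at 114, 99.8, 112 and 94.2 CPM in M5_O5 and at 83.1, 113, 110 and 111 CPM in M5, so that M5 replicate 1 was the lowest of all 8 libraries (0.012, SE 0.09). At 125 ± 13.3 and 113 ± 9.14 TPM (SD, n = 4) POLD4 was also the most abundant replication gene per length in both groups.

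Polymerase ε showed both directions. POLE, its catalytic subunit, was at 26.7, 28.5, 28.2 and 30.1 CPM in M5_O5 and at 33.7, 36.3, 32.9 and 34.2 CPM in M5, with every M5_O5 library lower (log2 -0.27, SE 0.07, edgeR adjusted p = 0.00488). The call held without any single library and was lost with scaling by library size only (-0.16) and in limma on log2(TPM + 1) (-0.11) or log2(TPM + 0.1) (-0.12). The accessory subunits POLE2 and POLE3 were higher, by 0.91 and 0.33 (edgeR adjusted p = 0.0477 and 0.000466). POLE2 had only 4 to 22 counts per library and lost its call without any 1 library other than M5 replicate 1 (0.66 to 1.01), whereas POLE3 had 510 to 784 counts.

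The clamp and its loader moved little. Of these 6 genes, 2 were higher (33.3%, against 19.5% of all genes tested) and 4 did not pass, with a median of 0.20. At the levels of these genes the share of all genes higher was 30.8% (3 to 10 CPM) and 23.4% (10 to 30 CPM). PCNA, the sliding clamp, was at 32.8, 28.3, 32.9 and 32.4 CPM in M5_O5 and at 27.7, 23.2, 22.7 and 20.6 CPM in M5. All 4 M5_O5 libraries were higher, by 1.34-fold (log2 0.43, SE 0.09, edgeR adjusted p = 0.00204). RFC3, a small subunit of the loader, was at 7.85, 7.64, 6.22 and 7.55 CPM in M5_O5 and at 6.42, 4.57, 5.26 and 4.49 CPM in M5, with M5 replicate 1 inside the M5_O5 range (0.50, SE 0.14, edgeR adjusted p = 0.00991). RFC1, the large subunit, was at 28.2, 31.2, 26.9 and 30.5 CPM in M5_O5 and at 31.6, 29.1, 30.5 and 26.4 CPM in M5 (-0.0081, SE 0.08). The small subunits RFC2, RFC4 and RFC5 did not pass, at 0.058, 0.31 and 0.085 (edgeR adjusted p = 0.677, 0.0549 and 0.574), although RFC4 did without M5 replicate 2 (0.36, edgeR adjusted p = 0.0499).

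None of the 3 subunits of RPA, the complex that coats single-stranded DNA, passed the test, and the group's median was 0.10. RPA3 was at 13.1, 12.9, 11.97 and 13.7 CPM in M5_O5 and at 10.0004, 11.2, 11.5 and 12.02 CPM in M5, with a slight overlap of the groups (0.20, SE 0.09, edgeR adjusted p = 0.0868). RPA1 was at 71.8, 75.0, 73.4 and 79.0 CPM in M5_O5 and at 77.4, 83.1, 78.6 and 74.8 CPM in M5 (-0.070, SE 0.06, edgeR adjusted p = 0.35). RPA2 lay at 0.10 (SE 0.08). RPA also serves repair, and its transcripts differed by at most 1.15-fold between groups.

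The 3 genes that finish Okazaki fragments did not pass either, with a median of 0.23. DNA2, a nuclease, was at 5.17, 3.39, 4.86 and 5.41 CPM in M5_O5 and at 4.38, 3.20, 3.69 and 4.30 CPM in M5, overlapping groups (0.27, SE 0.17, edgeR adjusted p = 0.21). FEN1, the flap endonuclease, was at 23.5, 22.7, 22.9 and 20.4 CPM in M5_O5 and at 18.3, 20.8, 19.9 and 19.7 CPM in M5, where 1 library of each group crossed over (0.18, SE 0.07, edgeR adjusted p = 0.0669). FEN1 passed without M5_O5 replicate 4 (0.22, edgeR adjusted p = 0.0401). LIG1, the ligase that seals the nicks, was at 0.23 (SE 0.14, edgeR adjusted p = 0.195).

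All 4 genes of fork protection were higher, against 19.5% of all genes tested, with a median of 0.54. CLSPN encodes claspin, an adaptor of the checkpoint kinase CHK1 that travels with the fork. It was at 4.36, 2.47, 3.56 and 3.86 CPM in M5_O5 and at 1.17, 0.784, 0.526 and 0.934 CPM in M5, a 4.17-fold difference without overlap (log2 2.06, SE 0.25, edgeR adjusted p = 3.05e-05) on 8 to 75 counts per library. TIMELESS, which binds the fork together with TIPIN, was at 11.8, 11.9, 10.7 and 13.1 CPM in M5_O5 and at 9.78, 7.97, 8.16 and 9.34 CPM in M5 (0.43, SE 0.10, edgeR adjusted p = 0.00483). These groups also stayed apart. TIPIN was higher by 0.59 with overlapping groups (edgeR adjusted p = 0.0153) and did not pass without M5 replicate 2 (0.47, edgeR adjusted p = 0.0521), and WDHD1, which links polymerase α to the helicase, by 0.50 (edgeR adjusted p = 0.00265).

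Of the 4 genes that rebuild chromatin and copy DNA methylation, 2 were higher (50%, against 19.5% of all genes) and 2 did not pass. Their median was 0.65. UHRF1, which brings the methyltransferase DNMT1 to hemimethylated DNA, was at 8.78, 6.84, 8.12 and 7.78 CPM in M5_O5 and at 3.50, 2.74, 3.03 and 3.43 CPM in M5. The lowest M5_O5 library was well above the highest M5 library (log2 1.31, SE 0.13, edgeR adjusted p = 7.77e-06). The histone chaperone ASF1B was higher by 0.83 (edgeR adjusted p = 0.000697). CHAF1A, the large subunit of chromatin assembly factor 1, was at 9.59, 11.8, 10.8 and 10.5 CPM in M5_O5 and at 11.2, 10.3, 9.61 and 11.5 CPM in M5, fully overlapping (0.0018, SE 0.10), and CHAF1B was at 0.46 (SE 0.26, edgeR adjusted p = 0.175).

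Of the 3 E2F genes, only E2F1 passed. This activator was at 2.67, 1.09, 2.73 and 2.14 CPM in M5_O5 and at 0.584, 0.653, 0.658 and 0.872 CPM in M5 (log2 1.62, SE 0.30, edgeR adjusted p = 0.000978), apart in all libraries although M5_O5 replicate 2 was close to the M5 range. E2F2, another activator, was at 1.74, 1.72, 1.54 and 2.14 CPM in M5_O5 and at 2.70, 0.914, 0.987 and 0.997 CPM in M5. With M5 replicate 1 it did not pass (0.38, SE 0.31, edgeR adjusted p = 0.353), and without it the log2 fold change was 0.88 (edgeR adjusted p = 0.00588). E2F8, a repressor, was at 4.30, 4.65, 5.10 and 4.46 CPM in M5_O5 and at 5.84, 3.66, 4.87 and 3.11 CPM in M5, overlapping groups (0.092, SE 0.17, edgeR adjusted p = 0.707). Among 10 further E2F, DP and pocket protein genes, 1 was higher (RBL1, 0.36) and 2 were lower (E2F4, -0.23, and RBL2, -0.21), with a median of 0.062. Over all genes tested, 19.5% were higher and 17.6% lower.

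**Figure D3:**
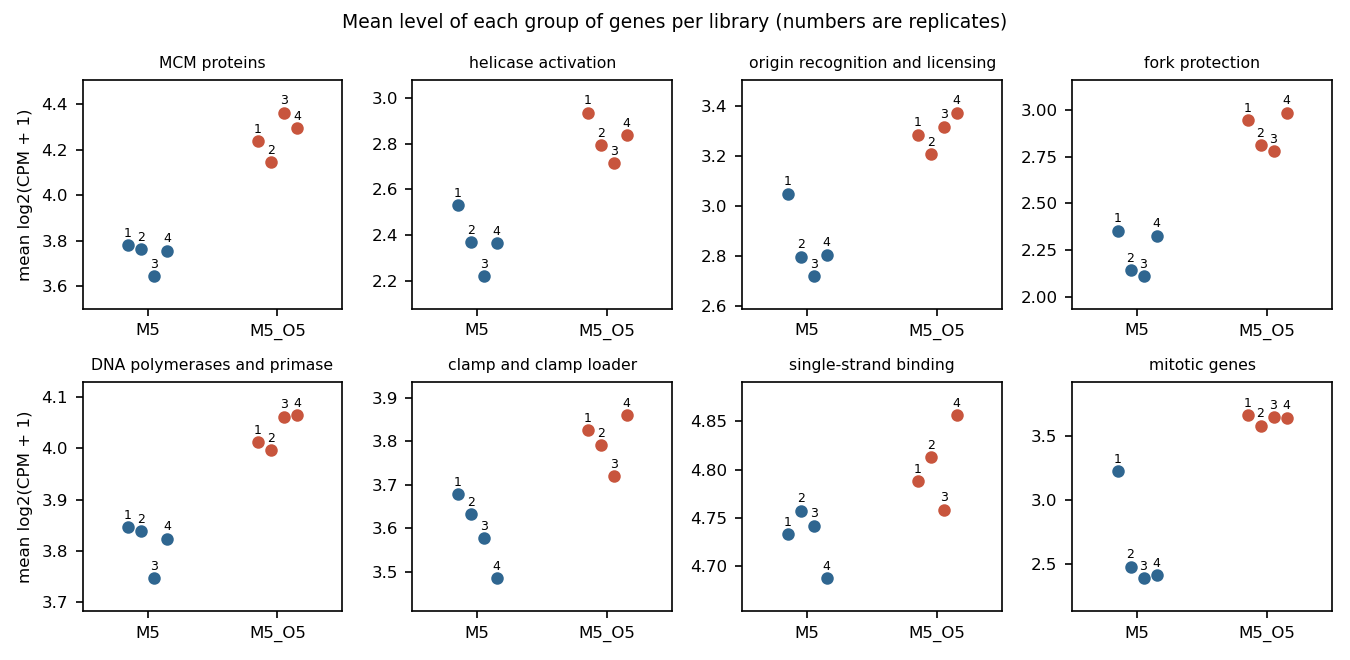
Mean log2(CPM + 1) of the genes of 7 replication roles and of 20 mitotic genes in each library, with replicate numbers above the points and a separate vertical scale in each panel. M5_O5 lies above M5 in the panels other than single-strand binding, where the groups nearly meet. M5 replicate 1 is the highest M5 point in every panel except single-strand binding, by the widest gap for the mitotic genes.

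Partners of 1 complex were compared as ratios within each library for 6 pairs, with two-sided exact permutation tests whose smallest possible p is 0.0286. The log2 ratio of ORC1 to ORC2 was higher in M5_O5 by 0.64, and that of RFC3 to RFC1 by 0.51, both with that smallest p (exact permutation p = 0.0286, adjusted 0.0857), so neither passed after adjustment. For POLE2 to POLE3 and POLA2 to POLA1 the differences were 0.64 and 0.25 (exact permutation p = 0.171 and 0.114, adjusted 0.206 for both). For DBF4 to CDC7 the difference was -0.0605 (exact permutation p = 0.686, adjusted 0.686). Over 6 pairs this smallest p passes adjustment only if most pairs reach it, so the adjusted test could hardly resolve single pairs. For ORC1 to ORC2 and RFC3 to RFC1 the ratios of the groups did not overlap. Unequal change was thus neither shown nor excluded for any of the 6 pairs.

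Differences were larger among weakly expressed genes. The 12 replication genes under 3 CPM on average had a median log2 fold change of 1.02 (0.25 for the 1646 tested genes at that level), and 9 of them were higher (23.5% of all genes at that level). Between 3 and 10 CPM the median of 20 genes was 0.51 (0.20 for all), with 13 higher (30.8% of all), and between 10 and 30 CPM that of 18 genes was 0.24 (0.058 for all), with 8 higher (23.4% of all). The 9 replication genes at 30 CPM or more had a median of 0.012 (-0.083 for all), with 3 higher (11.8% of all genes at that level) and both lower genes (30.8% of all). With a smooth trend on expression level removed from every library, 24 of 59 replication genes and 2021 of all 12434 genes were higher, and the median of the replication genes was 0.24.

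**Figure D4:**
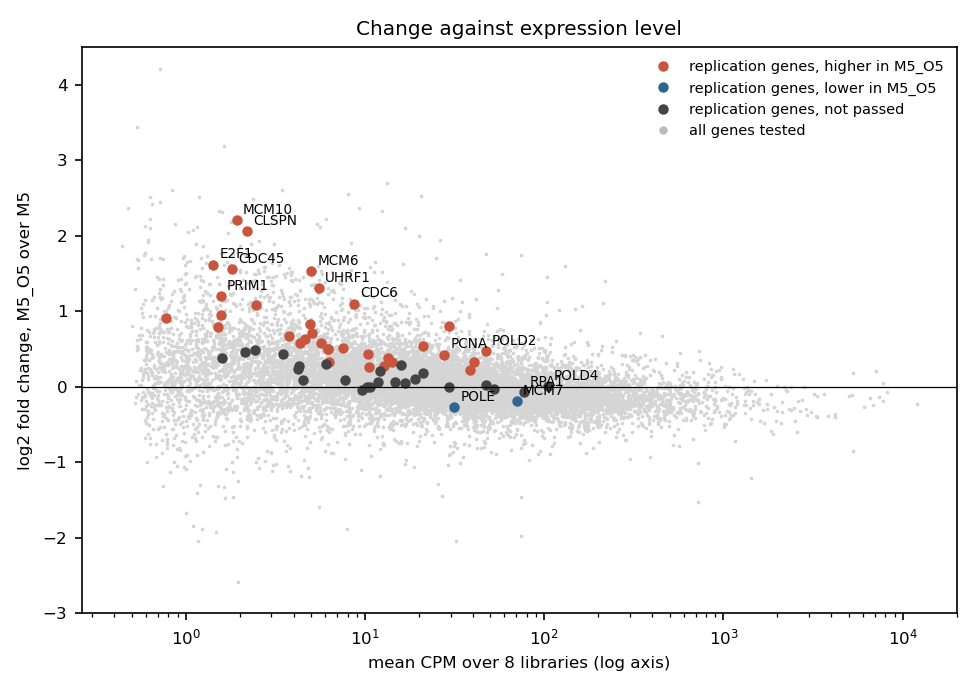
Log2 fold change of M5_O5 over M5 against mean CPM over the 8 libraries (log axis) for all 12434 genes tested, in grey, and the 59 replication genes in colour. The replication genes far above 0 lie at low levels, and the 9 genes at 30 CPM or more spread around a median of 0.012.

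Replication genes with and without an E2F word can be set beside the promoters shown above. The 26 genes with a word had a median log2 fold change of 0.53, with 20 higher and 2 lower, and the 25 without had a median of 0.31, with 12 higher and 0 lower. The ranges overlapped, from -0.27 to 2.06 with and from -0.070 to 2.21 without a word. MCM10, CDC45, PRIM1, ORC6 and ORC1 were among the largest differences without a word, and both lower genes had one. Over all tested genes the medians with and without a word were 0.022 and 0.011. Shares called were not split by word: 19.5% of all genes tested were higher and 17.6% lower. A CCAAT box, the NF-Y word, was in 30 of 51 genes (58.8%, against 43.5% of tested genes). The CHR words TTTGAA and TTCGAA, known from promoters of mitotic genes, were in 4 of 51 (7.84%, against 15.5%) and in 10 of the 15 mitotic genes with a window.

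**Figure D5:**
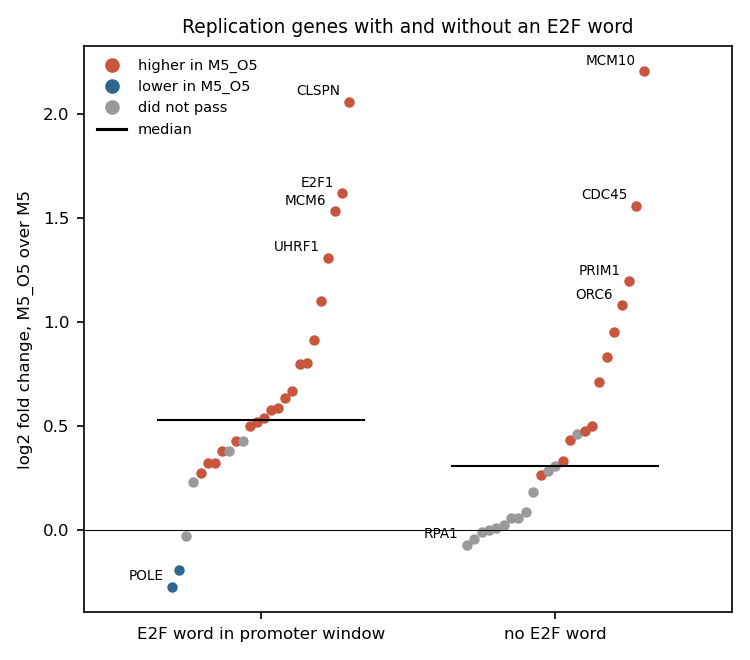
Log2 fold change of M5_O5 over M5 for the 26 replication genes with an E2F word in a promoter window and the 25 without, with a line at each median (0.53 and 0.31) and points coloured by call. Both sets span from below 0 to above 2.

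Other genes of replication outside the 59 were followed as a list of 45, of which 20 were higher (44.4%), 2 lower and 23 did not pass, with a median of 0.31. Over all genes tested, 19.5% were higher and 17.6% lower. DTL, which targets CDT1 for destruction through PCNA, was at 1.57, 2.36, 4.27 and 3.92 CPM in M5_O5 and at 1.24, 0.653, 0.263 and 0.498 CPM in M5 (log2 2.205, edgeR adjusted p = 0.000655). ESCO2, which acetylates cohesin behind the fork, was at 2.33, 2.18, 2.13 and 3.21 CPM in M5_O5 and at 1.75, 0.523, 0.395 and 0.623 CPM in M5 (log2 1.61, edgeR adjusted p = 0.00205). For both genes M5 replicate 1 was the M5 library nearest to M5_O5. Of 8 genes supplying nucleotides 6 were higher, led by RRM2, the S-phase subunit of ribonucleotide reductase. RRM2 was at 10.3, 8.501, 9.96 and 11.1 CPM in M5_O5 and at 3.72, 1.76, 1.78 and 1.43 CPM in M5 (log2 2.22, edgeR adjusted p = 4.76e-06). Among context genes at 1 CPM or more with adjusted p under 0.05, those lowest in M5_O5 were COL1A1, CD68 and the keratinocyte integrin ITGB4 (-0.45, edgeR adjusted p = 0.00114).

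Where a gene had at least 2 RefSeq transcripts with a mean of 10 reads, the share of its most abundant transcript was also compared between groups. For 4 of 39 such replication genes the groups did not overlap (10.3%), against 5.82% of all 8038 such genes. NM_002916 held 51.9% ± 9.68 of RFC4 in M5_O5 and 78.3% ± 11.7 in M5 (SD, n = 4), and NM_001080449 held 59.6% ± 13.7 of DNA2 in M5_O5 and 20.5% ± 4.53 in M5. NM_003920 held 93.8% ± 8.11 of TIMELESS in M5_O5 and 74.7% ± 7.997 in M5. XM_011541938 held 1.75% to 65.8% of CLSPN in the M5_O5 libraries and was listed at 0 in every M5 library. The read filter and the most abundant transcript were taken over all 8 libraries together. CLSPN had only 8 to 75 counts per library, most of them in M5_O5, so its transcript was chosen mainly from that group. The DNA2 transcript held only 17.4% to 27.0% in the M5 libraries, so it too ranked first through M5_O5. For CLSPN and DNA2 the lack of overlap therefore cannot be read as a change of transcript, although both are counted among the 4 genes. These shares are estimates that divide shared reads between transcripts, and for ASF1B they were exactly 50% in all 8 libraries.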

How the data were processed

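RNA from 8 HaCaT cultures was sequenced by the study with a SMARTER mRNA-Seq kit. According to the paper's methods the authors filtered the reads, aligned them with HISAT2 and quantified them with StringTie. The submitters' processing notes name HISAT2 2.1.0, Bowtie2 2.2.5, RSEM 1.2.8 and the build mm10, a mouse genome, whereas the transcripts listed are human RefSeq entries. Which of these tools made the table cannot be told apart. The authors deposited an estimated count, TPM (scaled to a fixed sum per library) and FPKM (divided by length and depth) for each transcript. FPKM and the authors' group means were not used here.

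Estimated counts, 53.8% of them fractional, were summed per Entrez gene over 86639 transcripts, including 4181 further placements, and rounded. Symbols came from the RefSeq table of GRCh38.p14, which matched 17068 of 17131 genes. Genes were filtered with filterByExpr, scaled by TMM and compared with the quasi-likelihood test of edgeR 4.0.16 (R 4.3.3), adjusted over all genes tested. The biological coefficient of variation was 7.42%. The script was tested on simulated data. Every pair of replicates differed by more than sampling noise (chi-square per gene 2.01 to 16.2). CPM are counts scaled to TMM-adjusted library size, and errors are SD or, for fold changes, an SE derived from edgeR's F statistic. Pair ratios used a prior count of 0.5. The results were recomputed with DESeq2 1.42.0, with other scalings and filters, with limma 3.58.1 on log2(TPM + 1) and log2(TPM + 0.1), a replicate block and leaving out each library.

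The genes, lists and tests were chosen with earlier results of these data known. All genes are named with their fold change. Levels in each library are given for CDC6, CDT1, GMNN, MCM2 to MCM7, PCNA and the E2F genes. They are also given for the largest and smallest absolute change in each role at 1 CPM or more. Among context genes, levels are given for DTL, ESCO2 and RRM2, the largest rises at 1 CPM or more with adjusted p under 0.05. Protein sequences were not analysed here.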

Additional observations from a re-analysis of the deposited data

Results flagged for a closer look

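In each of the 118 sets of 4 libraries (59 genes in 2 groups), the highest or lowest library was compared with the other 3, and 6 sets held a library far from the rest of its group, about the 5.9 that chance gives at 1 in 20. In M5 replicate 1 these were CDC7 at 1.68 CPM (others 0.849 to 0.987), E2F2 at 2.70 CPM (others 0.914 to 0.997) and POLD4 at 83.1 CPM (others 110 to 113). In M5_O5 replicate 2 they were MCM8 at 13.7 CPM (others 16.3 to 16.6) and PCNA at 28.3 CPM (others 32.4 to 32.9), and in M5_O5 replicate 1 it was WDHD1 at 6.68 CPM (others 7.41 to 7.53). Leaving out M5 replicate 1 brought E2F2 past the threshold (log2 fold change 0.88, edgeR adjusted p = 0.00588).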

How the results depend on the processing

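The number of replication genes higher in M5_O5, 33 as reported, was 24 to 39 under the other tools, scalings, filters and units and 25 to 37 with 1 library left out. Over all genes tested it was 2420 as reported, 2021 to 3858 under those alternatives and 1902 to 2872 with 1 library left out. The same call and direction was kept for 23 of the 33 in every alternative that tested them. The calls lost at least once were those of ORC5, MCM4, MCM8, GINS1, GINS3, CDC7, POLA1, POLE2, RFC3 and TIPIN. The 2 lower genes became 0 with library size only and in limma with either pseudocount, 1 with the trend on expression level removed, and 1 to 2 with 1 library left out. The 9 genes at 2-fold or more became 2 with limma on log2(TPM + 1) and 5 with at least 10 counts in every library, which tests only 54 of the 59 genes. The median log2 fold change of 0.38 became 0.49 with library size only (all genes 0.13), 0.24 with the trend removed and 0.50 with limma on log2(TPM + 0.1), and 0.32 to 0.43 with 1 library left out. The cause of these shifts was not tested.

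Signs that reversed belonged to genes near 0, none of which passed as reported. With library size only, TOPBP1 was at 0.088, PRIM2 at 0.072, RFC1 at 0.11 and RPA1 at 0.047. Limma on log2(TPM + 1) and log2(TPM + 0.1) gave TOPBP1 0.061 and 0.065, PRIM2 0.082 and 0.093, RFC1 0.11 and 0.12, and RPA1 0.037 and 0.038. With the trend removed, MCM5 was at -0.13, TOPBP1 at 0.011, POLD1 at -0.036, POLD3 at -0.022, RFC2 at -0.059, RFC5 at -0.073, RPA1 at 0.00023, CHAF1A at -0.13 and E2F8 at -0.10. DESeq2 gave MCM5 -0.018, POLD4 -0.0082 and CHAF1A -0.017, median-of-ratios factors MCM5 -0.012, POLD4 -0.0031 and CHAF1A -0.012, and no filter MCM5 -0.0014 and CHAF1A -0.0011. With 1 library left out the ranges were CHAF1A -0.050 to 0.050, E2F8 -0.045 to 0.26, the log2 ratio of DBF4 to CDC7 -0.16 to 0.053, MCM5 -0.046 to 0.035, POLD3 -0.032 to 0.15, POLD4 -0.083 to 0.060, PRIM2 -0.086 to 0.027, RFC1 -0.059 to 0.029, RFC2 -0.0062 to 0.10 and TOPBP1 -0.067 to 0.0097.

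Whether replicate numbers pair the libraries was not settled. Same-numbered libraries correlated at 0.21, 0.099, -0.0036 and 0.013 in their deviations from the group means, and differently numbered ones at -0.20 to 0.21. Over all genes, a block on replicate number gave 2703 higher and 2552 lower, against 2420 and 2192 without it. With the replicate block, 34 replication genes were higher and 2 lower, with a median of 0.41, and POLE2 lost its call while ORC2 and GINS4 passed. Low depth limits the genes under 3 CPM, of which POLE2 and MCM10 had as few as 4 and 6 counts in a library.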
